A study of Mus musculus with 8 samples.

Results

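The oligodendrocyte lineage regulators examined here are 9 genes: Olig1, Olig2, Sox10 and Sox8, which act along the whole lineage, Pdgfra, Nkx2-2 and Gpr17, which mark precursors and cells committed to differentiate, and Tcf7l2 and Nkx6-2, which belong to maturing cells. They were chosen by name, and every probe annotated to them was read. Of the 9 genes, 7 had a named probe and 6 had a probe detected in the brain, with 10 probes in all, 7 of them detected, among 25697 probes of the array and 8051 detected genes. Whole-brain RNA of 4 male Hfe-/- × Tfr2mut mice and 4 male wild-type mice, all of the AKR strain and 13 weeks old, had been hybridized to the 8 positions of 1 Illumina MouseRef-8 v2 BeadChip, on which the groups alternate. Both iron regulatory genes, Hfe and Tfr2, are disrupted in the mutants, which had in addition been fed 2% carbonyl iron for 3 weeks, whereas wild-type mice ate a standard diet of about 0.02% iron, so that genotype and diet cannot be told apart. In RNA of a whole brain, fewer cells of a type and less RNA per cell cannot be told apart either.

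Oligodendrocytes arise from proliferating precursors that carry the PDGF receptor alpha on their surface. Olig2 and Olig1, basic helix-loop-helix factors, and Sox10, a high-mobility-group factor, specify the lineage and stay on in the myelinating cell, with Sox8 as a close relative of Sox10 that shares part of its work. Leaving the precursor state involves Nkx2-2, a homeodomain repressor that acts on Pdgfra among other genes, and a passing phase in which the G-protein-coupled receptor Gpr17 is high and holds back the last step. Tcf7l2, a TCF/LEF factor that meets beta-catenin at Wnt target genes, appears in newly differentiating oligodendrocytes, and Nkx6-2 helps to arrange the myelin sheath. Adult thalamic neurons also transcribe Tcf7l2, and fibroblasts of the meninges and vessels also transcribe Pdgfra. The question was whether these regulators changed in the mutant brain, precursor against maturing genes, beside the transcripts of mature myelin.

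No detected regulator passed a threshold. Of the 6 genes, 0 were lower and 0 were higher at an unadjusted p under 0.05 in limma, the moderated linear model fitted across all detected probes, and 0 passed after Benjamini-Hochberg adjustment. Over all 11204 probes tested, 6.02% were lower and 6.72% were higher at the unadjusted threshold, 12.7% in either direction, and 0.17% passed after adjustment, 0.0268% lower and 0.143% higher. By genes, 459 of 8051 were lower and 547 higher at the unadjusted threshold, and this balance turned in the Average-normalized table, with 986 lower and 272 higher, where 0 regulators passed as well. The smallest unadjusted p among the regulators was 0.0844, that of Olig1. The 4 mutant and 4 wild-type values overlapped for 6 of 6 genes, whereas 7.85% of all probes did not overlap, 3.53% with the mutants below. The mean log2 signal lay below that of wild-type mice for 4 genes and above it for 2, with a median log2 change of -0.19, mutant minus wild-type, beside 0.00 over all detected genes. Without wild-type replicate 1 that median was -0.093, and with array brightness as a covariate it was -0.095. Signals are cubic-spline-normalized intensities in arbitrary units, and a probe counts as detected where the detection p-value of the scanner software is under 0.01 in every array of a group.

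The promoters of Nkx2-2, Pdgfra and Tcf7l2 are shown first because the signals of these 3 genes moved together across the arrays, as described further on. Each run is the 250 bases before the RefSeq start of the gene, 5′ to 3′ on the strand of the gene, from the GRCm38.p6 build, whose strain is not AKR. The window of Nkx2-2 is chr2:147186403-147186652 on the minus strand, that of Pdgfra is chr5:75152001-75152250 on the plus strand, and that of the first of 2 Tcf7l2 starts is chr19:55741560-55741809 on the plus strand. Capitals mark matches, on either strand, to 4 searched motifs: the E-box form CAGNTG bound by helix-loop-helix factors, AACAAT of SOX factors, CTTTGA of TCF/LEF factors and TNAAGTG of NKX2 factors.
Nkx2-2: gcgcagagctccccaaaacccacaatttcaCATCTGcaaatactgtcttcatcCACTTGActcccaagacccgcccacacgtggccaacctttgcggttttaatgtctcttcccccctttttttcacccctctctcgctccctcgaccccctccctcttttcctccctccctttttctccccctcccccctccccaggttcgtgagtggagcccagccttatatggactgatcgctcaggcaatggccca
Pdgfra: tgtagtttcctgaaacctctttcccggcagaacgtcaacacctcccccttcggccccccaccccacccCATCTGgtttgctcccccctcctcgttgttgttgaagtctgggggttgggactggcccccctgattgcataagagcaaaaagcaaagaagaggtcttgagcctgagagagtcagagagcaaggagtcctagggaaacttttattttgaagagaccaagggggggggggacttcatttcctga
Tcf7l2: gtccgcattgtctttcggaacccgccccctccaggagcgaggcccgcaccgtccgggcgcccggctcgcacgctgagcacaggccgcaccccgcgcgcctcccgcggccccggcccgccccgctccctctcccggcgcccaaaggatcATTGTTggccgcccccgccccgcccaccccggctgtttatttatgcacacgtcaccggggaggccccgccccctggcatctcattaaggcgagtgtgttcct
The Nkx2-2 window held an E-box match 220 bases and an NKX2 match 197 bases before the start. That of Pdgfra held an E-box match at 182 bases, and that of the first Tcf7l2 start a SOX match at 102 bases, while the second Tcf7l2 start had an NKX2 match at 205 bases. Among 32851 mouse promoter windows of the same length, 44.8% held the E-box form, 9.42% the SOX form, 13.8% the TCF/LEF form and 10.1% the NKX2 form. A match is a run of letters only, and no binding was measured here.

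**Figure D1:**
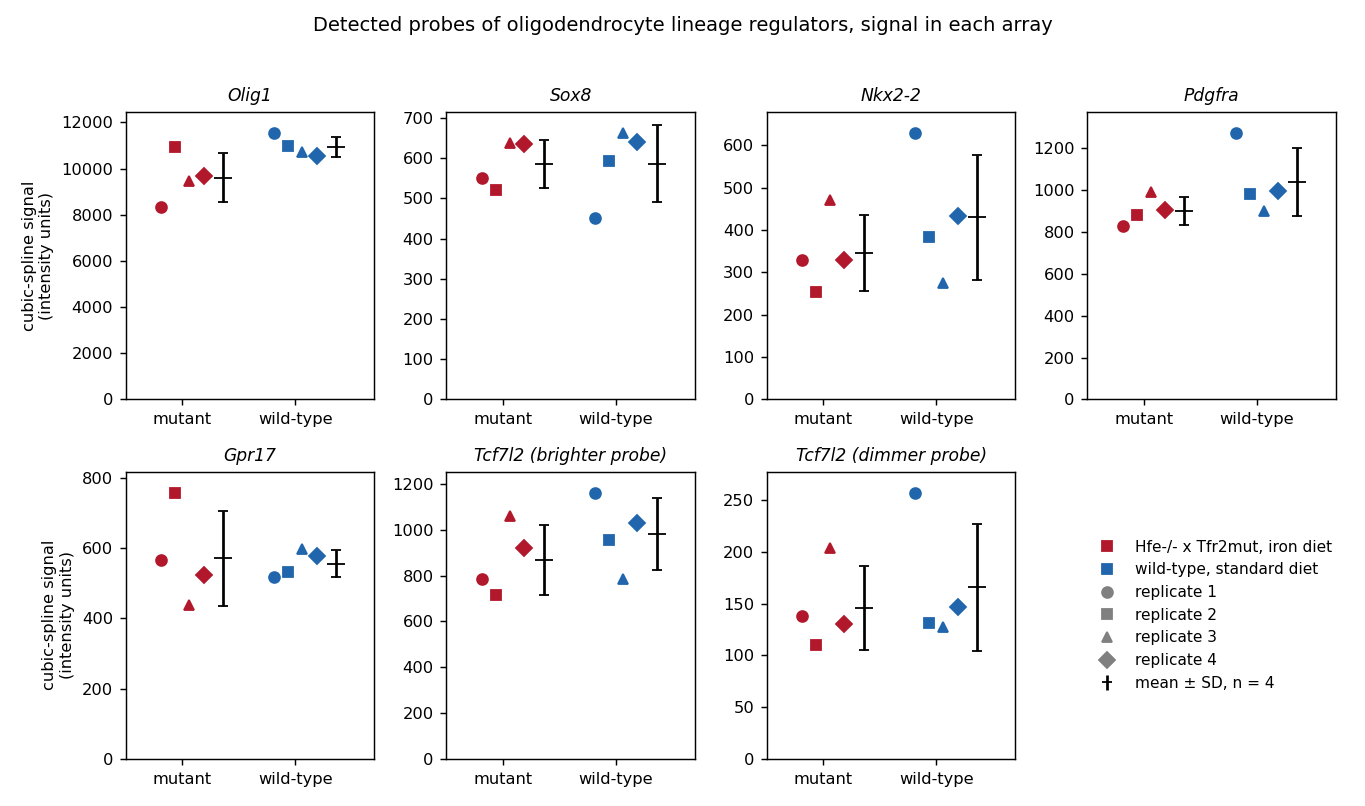
Cubic-spline signal in intensity units of the 7 detected probes of oligodendrocyte lineage regulators, with one point per array, Hfe-/- × Tfr2mut at the left and wild-type at the right of each panel, marker shapes for replicates 1 to 4, and bars for the mean ± SD (n = 4). The groups overlap in every panel, and wild-type replicate 1 is the highest array for Olig1, Nkx2-2, Pdgfra and both Tcf7l2 probes and the lowest for Sox8.

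Olig1, at 9607 ± 1069.6 intensity units in mutant and 10935 ± 435 in wild-type brains (SD, n = 4 each), came nearest to a difference. Its signals were 8345, 10954.5, 9466 and 9663 in mutant replicates 1 to 4, against 11529, 10965, 10722 and 10526 in wild-type replicates 1 to 4. In 3 of the 4 mutant brains Olig1 lay below all wild-type brains, and mutant replicate 2 lay within their range. The log2 change was -0.19 (SE 0.101, 95% interval -0.42 to 0.03, limma adjusted p = 0.451), with p = 0.0857 in a two-sided exact permutation test, of which the smallest value possible with 4 against 4 arrays is 0.0286. Without mutant replicate 2 the change was -0.26 with an unadjusted p of 0.0256 (limma), so that 1 array decides on which side of the unadjusted threshold Olig1 falls. After adjustment for all probes it stayed above the threshold under every alternative run, at 0.178 to 0.664.

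Sox8, the SOX factor next to Sox10 in function, had nearly equal means in both groups. Its signals were 550.2, 522, 637 and 634 in mutant replicates, against 451, 592, 662 and 641 in wild-type replicates, with means of 586 ± 59.0 in mutant and 587 ± 95.1 in wild-type brains (SD, n = 4 each). The log2 change was 0.01 (SE 0.134, 95% interval -0.29 to 0.30, limma adjusted p = 0.982). Wild-type replicate 1 had the lowest value of the 8 arrays.

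Olig2, the factor on which the whole lineage depends, could not be measured, because its only named probe was detected in 0 of 8 arrays. Its signal was 14.3, 14.98, 8.70 and 6.43 intensity units in mutant replicates, against 30.3, 24.99, 22.2 and 12.03 in wild-type replicates, where the lowest signal of any detected probe was 49.6 to 69.4 per array. The detection p-values of this probe ran from 0.0363 to 0.282. No probe is named for Sox10 or Nkx6-2 in the annotation used here, so both were not analysed, and the lineage-wide group rests on Olig1 and Sox8.

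Among the precursor genes, Pdgfra, the receptor that drives precursor division, gave 829, 879, 992 and 903 intensity units in mutant replicates, against 1272, 983, 903 and 995 in wild-type replicates. The group means were 901 ± 68.0 in mutant and 1038 ± 161 in wild-type brains (SD, n = 4 each). Part of the difference came from wild-type replicate 1, the only array above 1000. The log2 change was -0.20 (SE 0.119, 95% interval -0.46 to 0.07, limma adjusted p = 0.506, exact permutation p = 0.143). Without wild-type replicate 1 it was -0.09.

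Nkx2-2, the homeodomain repressor of the committed precursor, had the widest interval of the 6 genes. Its detected probe gave 329, 254, 471 and 329 intensity units in mutant replicates, against 629, 384, 274 and 433 in wild-type replicates. High and low arrays stood in both groups, with mutant replicate 3 and wild-type replicate 1 high and mutant replicate 2 and wild-type replicate 3 low. The log2 change was -0.29 (SE 0.243, 95% interval -0.82 to 0.25, limma adjusted p = 0.626, exact permutation p = 0.4). It was -0.083 without wild-type replicate 1 and -0.48 without wild-type replicate 3, the extremes when arrays were left out. A second probe, designed on another transcript of the gene, was detected in 0 of 8 arrays, at 23.2 to 54.4 intensity units in mutant and 37.7 to 53.5 in wild-type brains.

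Gpr17, the receptor of the passing committed stage, gave 567, 757, 437 and 522 intensity units in mutant replicates, against 517, 531, 598 and 576 in wild-type replicates. The mutant brains held both the highest and the lowest value, and their SD was 135 beside 38.0 in wild-type brains. The log2 change was 0.01 (SE 0.151, 95% interval -0.32 to 0.35, limma adjusted p = 0.975).

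For the maturing stage only Tcf7l2 was left, with 2 detected probes that gave like answers. The brighter one gave 786, 713, 1059.6 and 919 intensity units in mutant replicates, against 1161, 955, 784 and 1028 in wild-type replicates, a log2 change of -0.18 (SE 0.151, 95% interval -0.51 to 0.16, limma adjusted p = 0.627, exact permutation p = 0.343). The dimmer one gave 139, 109.7, 204 and 131 in mutant replicates, against 257, 132, 127 and 147 in wild-type replicates, a log2 change of -0.16 (SE 0.239, limma adjusted p = 0.799). Across the 8 arrays the 2 probes ran in parallel, with r = 0.837 and rho = 0.929 (exact permutation p = 0.0029 and 0.00223), and r = 0.648 without the 2 arrays farthest from the median of the brighter probe. The remaining Tcf7l2 probe lay below 0 after background subtraction in 8 of 8 arrays and was not detected.

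Precursor and maturing regulators were set side by side. The median log2 change was -0.09 over the 2 detected lineage-wide genes, -0.20 over the 3 precursor and committed precursor genes and -0.18 for Tcf7l2, and the interval of each single gene held 0. A difference between the stages was not tested, with 1 to 3 genes in each. Single arrays moved these values: the precursor median was -0.083 without wild-type replicate 1, and Tcf7l2 was at -0.088 without mutant replicate 2, -0.093 without wild-type replicate 1, -0.28 without mutant replicate 3 and -0.28 without wild-type replicate 3. The lineage-wide median was -0.045 without mutant replicate 1 and -0.14 without wild-type replicate 1. With Nkx2-2 and Gpr17 counted among the maturing genes instead, the medians were -0.20 for Pdgfra alone and -0.18 for the other group.

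**Figure D2:**
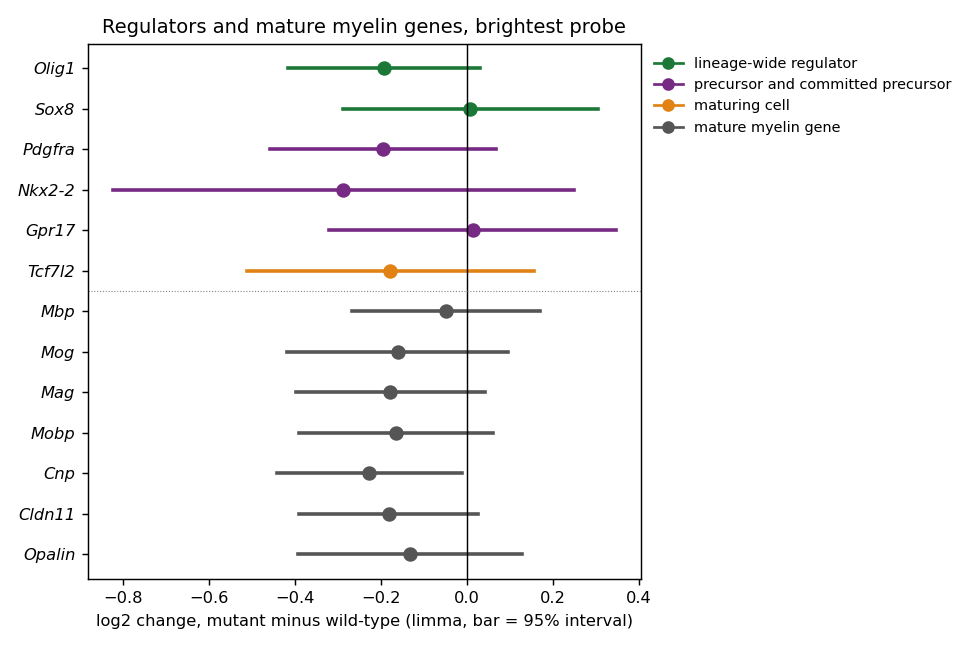
Log2 change, mutant minus wild-type, of the brightest probe of each of 6 regulators (coloured by stage) and 7 mature myelin genes (grey), with bars for limma 95% intervals (n = 4 against 4 arrays). The interval of Cnp is the only one of the 13 that leaves out 0, and that of Nkx2-2 is the widest.

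Transcripts of mature myelin, by comparison, lay mostly below wild-type levels. The list holds 50 genes, most of the myelin sheath and its lipids and some picked by the study for myelin, of which 45 had a probe and 36 were detected. Of the 36, 7 (19.4%) were lower and 0 higher at the unadjusted threshold, beside 6.02% lower and 6.72% higher over all probes. After adjustment 0 of the 36 passed, and their median log2 change was -0.14. The mean log2 signal was below that of wild-type brains for 28 genes and above it for 8, beside 49.9% below over all detected genes. The count of 7 was 3 without mutant replicate 1, 3 without wild-type replicate 2 and 4 without wild-type replicate 4. The 7 were Trf (transferrin), Fa2h (fatty acid 2-hydroxylase), Mcam, Kif5a, Cnp, Plekhb1 and Ugt8a, the enzyme that makes galactosylceramide. Some of these genes were picked by the study from these same arrays, so that their direction is not independent evidence, and Kif5a is a kinesin of neurons and Mcam an adhesion molecule of vessel walls. Trf gave 3379, 3496, 4248 and 3769.9 intensity units in mutant replicates, against 4491, 4857, 5308 and 5149 in wild-type replicates, without overlap, a log2 change of -0.41 (SE 0.104, limma adjusted p = 0.197).

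Genes of the sheath itself were read at every probe. Cnp, an enzyme of the non-compact sheath, was lower at both of its probes (log2 changes -0.23 and -0.26, limma unadjusted p = 0.0415 and 0.0146, adjusted p = 0.378 and 0.309). Mag, Cldn11, Mog, Opalin and Mbp, read by their brightest probes, did not pass, with log2 changes of -0.18, -0.18, -0.16, -0.13 and -0.05. The second Mog probe, at -0.13, and the further Mbp probes, at -0.02 and 0.04, did not pass either. The 3 probes of Mobp disagreed, at -0.16, -0.51 and 0.13, of which only the second passed the unadjusted threshold (limma p = 0.00554, exact permutation p = 0.0286).

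Per array, the mean deviation from the wild-type mean over the 36 myelin genes was -0.23, -0.09, -0.07 and -0.11 log2 units in mutant replicates 1 to 4, against -0.04, 0.02, 0.00 and 0.02 in wild-type replicates 1 to 4. The same mean over the 6 regulators was -0.23, -0.18, -0.02 and -0.12 in mutant replicates, against 0.13, -0.04, -0.14 and 0.04 in wild-type replicates. The means of the groups did not overlap for the 36 genes, some of which were picked from these arrays. Over the 7 sheath genes named above, from Cnp to Mobp, they were -0.25, -0.02, -0.17 and -0.19 in mutant replicates, against -0.08, 0.03, 0.00 and 0.05 in wild-type replicates, and overlapped through mutant replicate 2. Those of the regulators overlapped too, since wild-type replicate 3 lay below mutant replicates 3 and 4. The medians of the lists, -0.19 for regulators and -0.14 for myelin genes, stood in the other order without wild-type replicate 1, at -0.093 and -0.14. The order also turned without mutant replicate 2 (-0.14 and -0.17), with array weights (-0.163 and -0.172) and with array brightness as a covariate (-0.095 and -0.146). Whether the lists differ was not tested.

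**Figure D3:**
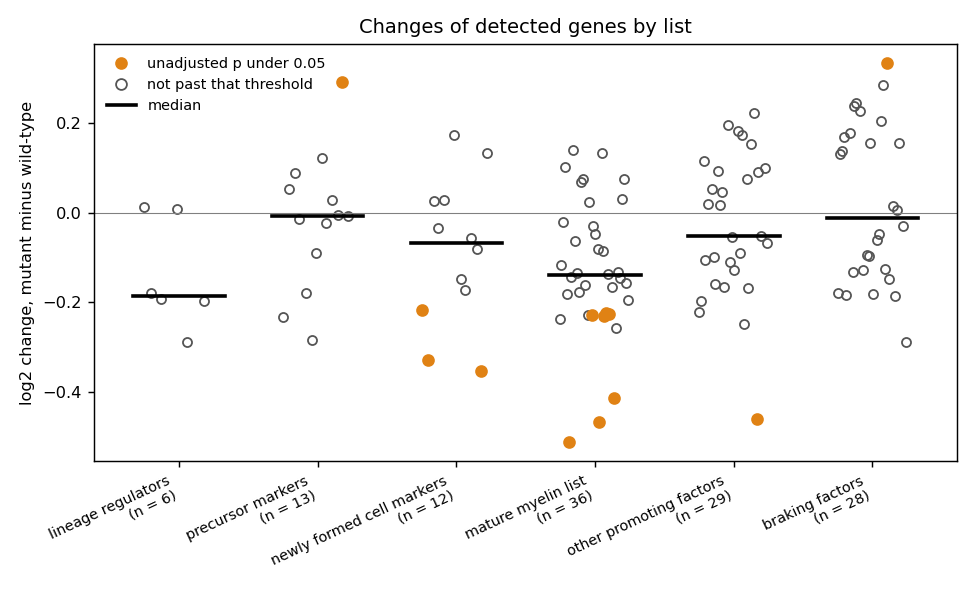
Log2 change, mutant minus wild-type, of each detected gene of 6 lists, with filled points for genes at an unadjusted p under 0.05 (limma), open points for the others and a line at the median of each list. The regulators hold 0 filled points of 6, the newly formed cell markers 3 of 12 and the mature myelin list 7 of 36, all of these below 0.

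Markers of the stages around the regulators were read in the same way. Over all probes, 6.02% were lower and 6.72% higher at the unadjusted threshold. Of 25 precursor markers 13 were detected, with a median of -0.01 and mean log2 signals below wild-type brains for 8 and above for 5. At the unadjusted threshold 0 were lower and 1 was higher. The one was Cspg4, the NG2 proteoglycan of precursors and pericytes, at 72.9, 95.7, 80.7 and 67.5 intensity units in mutant replicates, against 68.0, 65.4, 58.8 and 64.8 in wild-type replicates, a log2 change of 0.29 (limma adjusted p = 0.350). These values are just above the detection limit, and with 3 of the 4 wild-type arrays detecting it the probe was kept through the mutant group, where it is higher, so that its call has that limit. Of 25 markers of newly formed oligodendrocytes 12 were detected, and 3 were lower and 0 higher, with a median of -0.07. They were Elovl6, a fatty acid elongase (-0.35), Fam107b (-0.33) and Bcas1, a marker of early myelinating cells (-0.22), with adjusted p of 0.321, 0.340 and 0.344 in limma. Bcas1 gave 12298, 12919, 13091 and 12966 intensity units in mutant replicates, against 14212, 14238, 15587 and 15638.0 in wild-type replicates, without overlap.

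Other factors that drive or hold back the lineage showed few calls, near or below the share over all probes. Of 29 detected factors that promote differentiation, 1 was lower and 0 higher, with a median of -0.05. It was Tcf12, a helix-loop-helix partner of the OLIG proteins, at 107, 106, 99.2 and 90.3 intensity units in mutant replicates, against 158, 120, 157 and 123 in wild-type replicates, without overlap, a log2 change of -0.46 (SE 0.120, limma adjusted p = 0.215). Of 28 detected braking factors 0 were lower and 1 was higher, the immediate-early factor Egr1 (0.33, limma adjusted p = 0.344), with a median of -0.01. On the side of Pdgfra, 18 genes of the PDGF pathway were detected, and 1 was lower and 0 higher, the kinase subunit Pik3ca (-0.40, limma adjusted p = 0.316). The 3 detected hedgehog genes held 0 calls.

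Around Tcf7l2, 35 of 58 Wnt pathway genes were detected, with a median of -0.11. Of these, 5 (14.3%) were lower and 2 higher at the unadjusted threshold, beside 6.02% and 6.72% of all probes, and 0 after adjustment. The lower ones were Apcdd1, an inhibitor at the membrane (-0.55), the co-receptor Lrp6 (-0.64), Dvl1, which relays the signal (-0.32), Nkd2, which binds dishevelled proteins (-0.40, detected in 2 of 4 mutant arrays and kept through the wild-type group), and Axin2, a feedback target (-0.37). The higher ones were Dkkl1 (0.33) and the secreted inhibitor Wif1 (0.26). Apcdd1 gave 170.3, 214, 160.1 and 132 intensity units in mutant replicates, against 261, 226, 244 and 246 in wild-type replicates, without overlap (limma adjusted p = 0.197). Limma adjusted p for the other 6 ran from 0.243 to 0.376.

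Nkx2-2, Tcf7l2 and Pdgfra went up and down together over the arrays, across the line between the groups. Wild-type replicate 1 and mutant replicate 3 were high for Nkx2-2 and Tcf7l2, and mutant replicate 2 and wild-type replicate 3 were low. Over the 8 arrays Nkx2-2 and Tcf7l2 had r = 0.953 and rho = 0.976 (exact permutation p = 0.000347 and 0.000397, and 0.00521 and 0.00595 adjusted over 15 pairs). Nkx2-2 and Pdgfra had r = 0.879 and rho = 0.833 (p = 0.00303 and 0.0154, adjusted 0.0177 and 0.0769), so that the rank correlation failed the adjustment. Pdgfra and Tcf7l2 had r = 0.840 and rho = 0.905 (p = 0.00355 and 0.00456, adjusted 0.0177 and 0.0342). Without the 2 arrays farthest from the median r was 0.918, 0.744 and 0.895 for these 3 pairs, and with each group centred on its own mean it was 0.946, 0.877 and 0.815. Gpr17 ran the other way, at r = -0.762 with Tcf7l2 (rho -0.810, exact permutation p adjusted to 0.0701 and 0.0817), and the other 11 pairs had adjusted p of 0.172 to 0.774 for r.

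The same signals moved with the brightness of the arrays before normalization. The mean non-normalized signal was 677, 569.5, 741 and 605 in mutant replicates, against 905, 739, 571 and 625 in wild-type replicates. Its log2 correlated with Nkx2-2 at r = 0.889 and rho = 0.929 (exact permutation p = 0.0033 and 0.00223, and 0.0178 and 0.0156 adjusted over 7 relations). For Pdgfra r was 0.801 and rho 0.643 (adjusted p = 0.0438 and 0.135), for the brighter Tcf7l2 probe 0.767 and 0.881 (adjusted p = 0.0456 and 0.0169), and for the dimmer one 0.867 and 0.905 (adjusted p = 0.0178 and 0.016), by the same permutation test. The 2 arrays farthest in brightness were wild-type replicate 1 and mutant replicate 2. Without them r was 0.683, 0.354, 0.479 and 0.570, so that the relation of Pdgfra in particular rests on those arrays.

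Among the 10576 probes detected in all 8 arrays, many moved with array brightness, up or down. In 7.3% of them the correlation, of either sign, was at least as strong as that of Nkx2-2. The share was 18.8% for Pdgfra and 23.1% for the brighter Tcf7l2 probe. For Olig1, Sox8 and Gpr17 r with brightness was 0.152, -0.576 and -0.621 (permutation p adjusted to 0.706, 0.160 and 0.146). With brightness as a covariate, the log2 changes were -0.10 for Nkx2-2, -0.13 for Pdgfra and -0.09 for Tcf7l2, each nearer to 0, and -0.20 for Olig1. After brightness was taken out, r was 0.924 between Nkx2-2 and Tcf7l2, 0.608 between Nkx2-2 and Pdgfra and 0.587 between Pdgfra and Tcf7l2. The 2 values with Pdgfra were matched or passed in size by other pairs. These were Sox8 with Gpr17 at -0.899, Olig1 with Pdgfra at 0.820 and Sox8 with Tcf7l2 at 0.614.

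**Figure D4:**
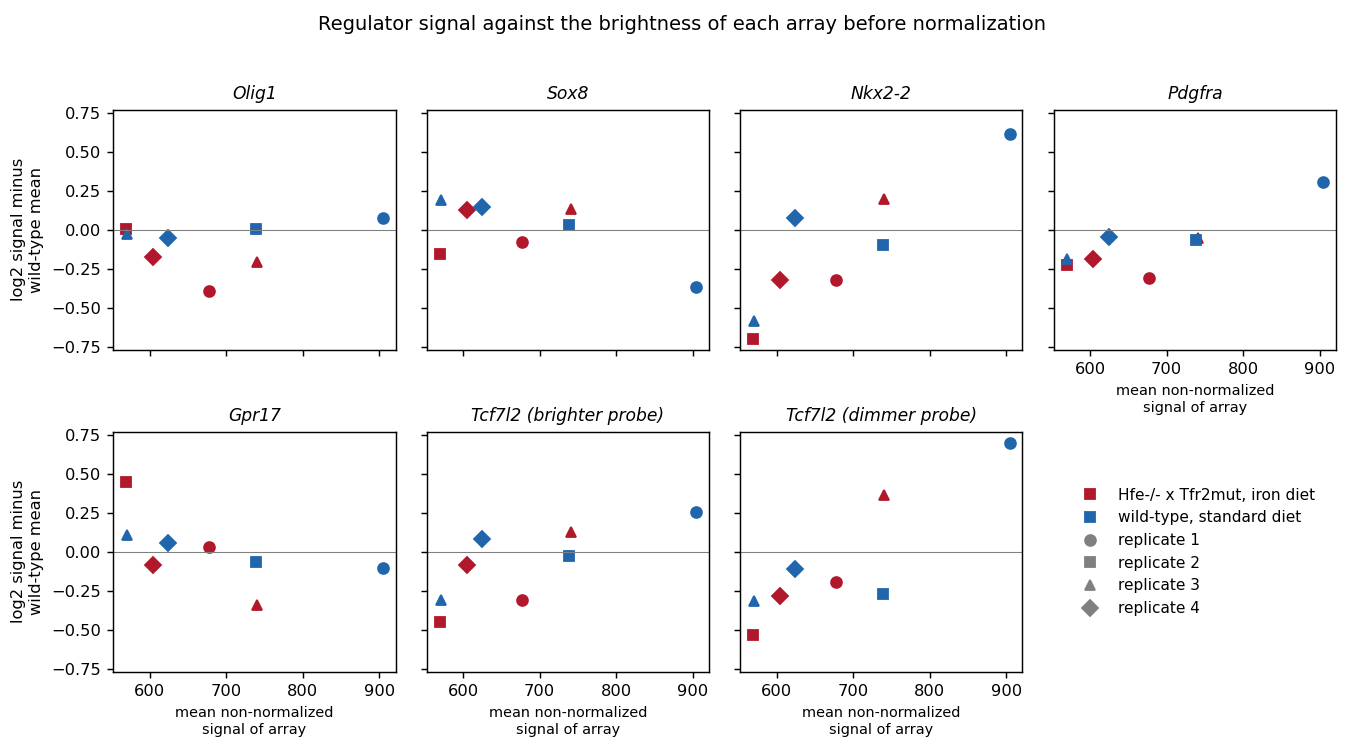
Log2 signal minus the wild-type mean of each detected regulator probe (vertical axis) against the mean non-normalized signal of the array in intensity units (horizontal axis), with Hfe-/- × Tfr2mut arrays in red and wild-type arrays in blue. Nkx2-2 and both Tcf7l2 probes tend to be higher in brighter arrays of either group, and wild-type replicate 1, the brightest array at 905, stands at the far right.

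Genes whose log2 signals were most like each regulator over the 8 arrays were looked up among 7659 genes detected in all arrays. They were Grk5 and Vps54 for Olig1 (r = 0.964 and 0.946), Camk2n1 and Mmp1a for Sox8 (0.948 and 0.935), Zcchc7 and Sphk2 for Nkx2-2 (0.995 and 0.988), Kank1 and Adar for Pdgfra (0.986 and 0.980), Mfsd5 and Idh3a for Gpr17 (0.976 and 0.970) and Tmem63a and Huwe1 for Tcf7l2 (0.983 and 0.975). Genes with r of at least 0.9 numbered 295 for Nkx2-2, 135 for Tcf7l2 and 128 for Pdgfra, beside 61 for Gpr17, 8 for Olig1 and 3 for Sox8. All of these points share 1 BeadChip and its normalization.

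Cells other than oligodendrocytes were followed through marker lists, to be read beside 6.02% of all probes lower and 6.72% higher at the unadjusted threshold. Of 19 thalamic markers with a probe 14 were detected, Lef1 not among them. Of the 14, 1 was higher (Tnnt1, 0.43) and 0 lower at the unadjusted threshold. Their summed signal was 54606 to 66602 in mutant and 55689 to 65768 in wild-type brains. The largest part of that sum was Cplx1, at 22728 to 31617 in mutant and 22473 to 31917 in wild-type brains. Of 13 fibroblast markers with a probe, which bear on Pdgfra, 8 were detected, Col1a2 not among them. Of the 8, 4 were lower and 0 higher (median -0.28, summed signal 8128 to 9817 in mutant and 9705 to 11387 in wild-type brains). Among the 4, Col1a1 was detected in 1 of 4 mutant arrays and kept through the wild-type group. Of 13 endothelial and mural markers with a probe 6 were detected, Pecam1 not among them. Of the 6, 4 were lower (median -0.45, 2902 to 4027 in mutant and 4180 to 4335 in wild-type brains). Among these, Slco1a4 was detected in 1 of 4 mutant arrays and likewise kept through the wild-type group. Detected microglial markers were higher for 3 of 10 (median 0.18, 4228 to 4601 in mutant and 3793 to 4220 in wild-type brains). Of 12 detected astrocyte markers 1 was lower. Of 14 neuronal markers with a probe 10 were detected, Snap25 not among them, and 2 were lower. Of 8 choroid plexus markers 1 was lower, and both detected globin genes were higher (Hba-a1 1.06, Hbb-b2 1.32, limma adjusted p = 0.253 and 0.230, with Hbb-b2 detected in 3 of 4 wild-type arrays and kept through the mutant group), with a summed signal of 1706 to 4916 in mutant and 1209.9 to 2203 in wild-type brains. The part of these cells in the regulator signals was not tested.

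Across the series, 11188 to 11751 probes were detected per mutant array and 11568 to 12192 per wild-type array, and r between arrays was 0.967 to 0.994. The 7 defining oligodendrocyte genes read here were detected in 8 of 8 arrays. A single Hfe probe was detected, at 314 to 356 intensity units in mutant and 123 to 139.9 in wild-type brains, and neither of the Tfr2 probes was. Since the place of that probe on the disrupted allele is unknown here, its signal is no check of the labels. Nothing in the labels tells whether brains of 1 group came from separate litters, so p-values measure only the spread between these samples.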

How the data were processed

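Biotin-labelled cRNA of whole brain was hybridized to 1 BeadChip with 8 arrays. The authors subtracted background in GenomeStudio and deposited intensity values in 3 tables, without normalization, after Average and after Cubic Spline normalization. The detection p-value of each probe against negative control beads is deposited beside each intensity. The version of the probe annotation is not given in the sources used.

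Probes were named through RefSeq Entrez identifiers (GRCm38.p6), which matched 23962 probes. Where that match was missing, the gene symbol of the platform annotation was used, and 23978 of 25697 probes had a name. Cubic-spline signals under 10 were set to 10 and log2-transformed. A probe was kept where all arrays of 1 group or of both had detection p-values under 0.01 (11204 probes). Groups came from the sample titles, 4 arrays each, and 0 columns stayed without a sample. They were compared with limma 3.58.1 in R 4.3.3 without covariates, as mutant minus wild-type, and p was adjusted over all kept probes (Benjamini-Hochberg). Calls are given at an unadjusted and at an adjusted p under 0.05, and a gene is read by its brightest detected probe. The script was tested on simulated data. Two-sided exact permutation tests were used for single genes and correlations.

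Named genes were all 9 regulators with every probe, a set of myelin genes, of which 7 are reported here, in each further list the genes of lowest p, 3 at most, and the 2 genes most like each regulator. Outside this rule, and after their values were seen, all genes that passed in the Wnt and myelin lists were named. So were markers whose probes were undetected or kept through 1 group, and Cplx1 for its part in the thalamic sum. Regulators and lists were chosen with earlier results of these data known. The further lists hold precursor and newly formed cell markers, promoting and braking factors, PDGF, Wnt and hedgehog genes, and markers of thalamus, astrocytes, microglia, neurons, endothelial and mural cells, fibroblasts, choroid plexus and blood. Alternatives were the Average table, quantile normalization, neqc, floors of 1 and 30, other detection filters, an equal-variance test, BeadChip position, array weights, a block for the replicate number, the mean of the probes of a gene, other stage groups and leaving out each array. Array brightness as a covariate was chosen after seeing the data. The limited number of arrays sets the precision. Promoter motifs were searched on both strands of 250 bases before each RefSeq start.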

Additional observations from a re-analysis of the deposited data

Results flagged for a closer look

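Of 28 groups of 4 arrays looked at, 2 held an array far from the other 3 by Dixon's criterion, which chance meets in about 1 in 20 groups. The dimmer Tcf7l2 probe read 257 intensity units in wild-type replicate 1, against 127 to 147 in the other wild-type arrays. The brightest Mbp probe, for myelin basic protein, read 34664 intensity units in the same array, against 42280 to 43593 in the other wild-type arrays. Wild-type replicate 1 was also the brightest array before normalization, and the part of that brightness in either value was not tested.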

How the results depend on the processing

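Olig1, Nkx2-2, Pdgfra and Tcf7l2 kept a negative log2 change under all 22 alternatives run, and no regulator passed adjusted p under any of them. Sox8 and Gpr17, near 0, changed sign. Sox8 was at -0.086 in the Average table, -0.056 with BeadChip position, -0.018 with array weights and -0.051 with array brightness, and ran from -0.11 to 0.072 when arrays were left out. Gpr17 was at -0.075 in the Average table and -0.062 with array brightness, and ran from -0.13 to 0.13 when arrays were left out. The Average table moved the median of all genes to -0.08.

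The count of regulators lower at unadjusted p was 1 with array weights (Olig1, log2 change -0.23) and 0 to 1 when arrays were left out. It was 1 without a detection filter, where the undetected Olig2 probe entered (limma p = 0.0413, exact permutation p = 0.0857, with 2 mutant arrays at the floor), which also moved the lineage-wide median to -0.19. The count of lower myelin genes, 7 as reported, was 13 with array weights and 3 to 8 when arrays were left out, and that of higher ones 0 to 1. At adjusted p, 2 myelin genes passed with array weights. The cause of these shifts was not tested.

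With each group centred on its own mean, same-numbered arrays had correlations of 0.13, -0.14, -0.40 and 0.11. For mutant replicates 1 and 4 the same-numbered wild-type array was the closest one, and for replicates 2 and 3 it was not. So few values cannot tell whether the numbers pair the samples. With the replicate number as a block 3 myelin genes were lower, 0 regulators passed, and the log2 change of Olig1 was -0.19.

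The undetected Olig2 probe gives no measure of that gene. Probes near the detection limit, such as that of Cspg4, and intervals as wide as that of Nkx2-2 leave changes within them undecided.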
